A study of Homo sapiens with 6 samples.

Results

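The nuclear respiratory chain genes are the nuclear genes whose names begin NDUFA, NDUFB, NDUFC, NDUFS, NDUFV, SDHA to SDHD, UQCR, COX4 to COX8 or ATP5, taken from the protein-coding genes of the GENCODE annotation on hg19. The rule found 102 genes. Of these, 2 readthrough genes that join a member to its neighbour were left out, so 100 of 19472 nuclear protein-coding genes were counted. By name, 39 belong to complex I, 4 to complex II, 9 to complex III, 17 to complex IV and 19 to complex V, and 12 are assembly factors, whose names also begin NDUFA or SDHA to SDHD. The rule picks members by name and not by a measured value, but it was chosen with earlier results of these data known.

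The respiratory chain passes electrons from NADH and succinate to oxygen across the inner mitochondrial membrane, and complex V, the ATP synthase, uses the resulting proton gradient to make ATP. Most subunits are encoded in the nucleus, translated in the cytosol and imported, and a few core subunits are made inside the organelle. The mRNAs of nuclear subunits are abundant, and many have a short coding region. HuR, encoded by ELAVL1, is a nucleocytoplasmic RNA-binding protein known for binding U-rich and AU-rich stretches, mostly in introns and 3′UTRs.

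The 6 libraries came from HEK293, a human embryonic kidney line that was fed the photoreactive nucleoside 4SU and crosslinked with long-wave UV light. By the methods, the cells carried stable, doxycycline-inducible HuR or GFP. GFP has no known RNA targets, and its immunoprecipitates through a FLAG antibody stood for background, as 3 libraries cut from a gel at about 20 kDa (G20), 35 kDa (G35) and 45 kDa (G45). HuR immunoprecipitated the same way gave 2 replicates. Total was 1 library from crosslinked, RNase-treated lysate with no immunoprecipitation and with ribosomal RNA depleted. The slices are different gel regions and not repeats of one region, so tests that treat them as a group measure the spread between regions as well, and nothing states that the HuR replicates were separate cultures.

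In PAR-CLIP, a 4SU base that was crosslinked to protein is read as C in place of T. The deposited sites, called groups, are runs of overlapping reads on one strand with their counts of reads and conversion events, and a site was given to a member where its midpoint lay in an exon or an intron on the gene's strand. Members held 4237, 684 and 713 exon reads in G20, G35 and G45, 961 and 9412 in HuR replicates 1 and 2, and 29338 in Total. Over all nuclear genes the exon reads ran from 347235 in G45 to 4203078 in Total. HuR replicate 1 had fewer exon reads over all nuclear genes than HuR replicate 2, at 722784 against 3380852. In HuR replicate 1, 72.2% of member exon sites rested on 1 read, compared to 11.8% in HuR replicate 2. G35 and G45, with fewer exon reads than HuR replicate 1, had 12.1% and 22.3%. ELAVL1 itself had a TMM-normalised exon CPM (counts scaled to 1000000 per library) of 569 and 664 in HuR, 240 to 532 in the slices and 202 in Total. LIN28B and IGF2BP1, genes that HEK293 cells express, had exon reads in every library. NEFM and PAX2, further genes known from this line, had at most 22, and among markers of other tissues CD3E had none anywhere, while PTPRC, ALB, HBB and COL1A1 reached at most 41. In bulk lysate, fewer cells of a type and less RNA per cell cannot be told apart, and reads at a site mix the level of the RNA with how often it was crosslinked and recovered.

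A selection of the most read member sites is shown by sequence, and it does not stand for all sites of a library. The first set holds examples of HuR replicate 2 sites in mature transcripts. Sequences are from the deposited tables and matched hg19 at all positions of all member sites. Up to 30 bases at the conversion peak are shown, or the whole site where it is shorter, 5′ to 3′ on the RNA strand. Capitals mark 5 or more T in a row, ATTTA, or 4 or more G in a row.

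COX7A2L, 3′UTR, chr2:42578309-42578338, minus strand: tttgTTTTTTggcataaaccctttgaagtt
NDUFA5, 3′UTR, chr7:123181819-123181848, minus strand: ttcaatacatcATTTAaTTTTTTaagttat
ATP5MC3, 3′UTR, chr2:176042681-176042710, minus strand: catattgtaattcatagggcttttgtttat
ATP5MC3, 3′UTR, chr2:176042721-176042750, minus strand: caatgtaaTTTTTatgggaattcttttata
NDUFA5, 3′UTR, chr7:123181534-123181563, minus strand: tgttttcttatagtcttaattttattatat

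COX7A2L encodes a complex IV related protein that takes part in joining complexes into supercomplexes, and its site held 294 reads in HuR replicate 2. The same place held 7 reads in HuR replicate 1, 4 in G35, none in G20 or G45 and 10 in Total. NDUFA5, a complex I subunit of the arm that faces the matrix, had 149 reads at its first site in HuR replicate 2, compared to 6 in replicate 1, 40 in Total and at most 4 in a slice. ATP5MC3, one of the genes for the rotating c-ring of ATP synthase, had 96 and 83 reads at its pair of sites in HuR replicate 2 and none in any other library. The second NDUFA5 site held 85 reads there, 7 in HuR replicate 1 and none elsewhere. Both ATP5MC3 sites and the second NDUFA5 site were picked as the most read without overlap with any slice. Their lack of slice reads therefore follows from the choice. Events per 100 reads lay between 86.7 and 118 at these sites in HuR replicate 2.

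The most read exon sites of HuR replicate 1 were different ones, and their sequences are not shown. A 5′UTR site of the complex I gene NDUFC1, chr4:140223309-140223324, held 26 reads with 0 events, none in the slices or HuR replicate 2 and 1 read in Total. Its deposited label is intron. A 3′UTR site of NDUFB2, also complex I, at chr7:140405026-140405061 held 12 reads with 83.3 events per 100 reads and none in any other library. A 5′UTR site of ATP5MK at chr10:105155628-105155642 held 11 reads with 0 events, 10 reads in G35 and 1 in Total.

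The next set shows intron sites of HuR replicate 2, the most read one and the 3 most read without overlap with any slice. The next most read intron sites there, in COX7B2 and NDUFA12, and the 3 most read of HuR replicate 1, in NDUFA9, NDUFA12 and UQCR11, were also read in every slice and are described with the intron tests.

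ATP5F1C, intron, chr10:7845483-7845512, plus strand: tcTTTTTTccaaatattttacatcggctgt
ATP5MK, intron, chr10:105153415-105153437, minus strand: gggtatactcattttataattcg
NDUFA10, intron, chr2:240952760-240952789, minus strand: attctgaggtctaaagtagagctgtcaact
UQCRFS1, intron, chr19:29700976-29701004, minus strand: ttaaaattccttaaattttctcctttaag

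The ATP5F1C site (the gamma subunit, the central stalk of ATP synthase) held 482 reads with 130 events per 100 reads in HuR replicate 2, 17 reads in replicate 1, 5 in G20, 4 in Total and none in G35 or G45. The sites in ATP5MK, NDUFA10 and UQCRFS1 held 183, 145 and 138 reads in HuR replicate 2 and 15, 4 and 2 in replicate 1. No slice had a read at these 3 places, which follows from how they were picked.

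The 3 exon sites of members with the most reads lay in coding sequence in each slice and in Total, and the last set shows examples of them.

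NDUFA13, coding, chr19:19637002-19637031, plus strand: ctggccatagggattggaaccctgatctac
ATP5F1B, coding, chr12:57038677-57038706, minus strand: gtacagaaggcttggttagaggccagaaag
ATP5PO, coding, chr21:35284661-35284690, minus strand: tatacggtattgaaggtcgctatgccacag
NDUFA3, coding, chr19:54606480-54606497, plus strand: cgtcgtcGGGGGcctcgg
ATP5F1C, coding, chr10:7844293-7844322, plus strand: atctggccaacatcatctactactctctga

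The NDUFA13 site held 62 reads in G20, 12 in G35, 13 in HuR replicate 2 and 9 in Total. The ATP5F1B site, in the gene for the catalytic beta subunit, held 53, 13 and 9 reads in G20, G35 and G45, 1 and 9 in HuR and none in Total. ATP5PO encodes a subunit of the stalk that holds the catalytic head in place, and its site had 2, 2 and 16 reads in the slices, 0 and 7 in HuR and 78 in Total. The short G-rich NDUFA3 site had 7, 46 and 15 reads in the slices, 1 and 0 in HuR and 5 in Total. In Total, a single coding site of ATP5F1C held 1299 reads with 15.9 events per 100 reads, against 15 reads in G20 and 21 in HuR replicate 2.

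HuR reads on mature respiratory chain transcripts lay mostly in 3′UTRs, while reads of the slices and of Total lay mostly in coding sequence. Of member exon reads, 65.3% (Wilson 95% interval 62.3 to 68.3) and 76.8% (75.9 to 77.6) were in 3′UTRs in HuR replicates 1 and 2, compared to 16.2%, 27.8% and 21.9% in G20, G35 and G45 and 22.8% in Total. The group means were 71.1% ± 8.1 for HuR (SD, n = 2) and 21.9% ± 5.8 for GFP (SD, n = 3). Coding sequence held 21.1% and 18.1% in HuR, 74.1%, 62.0% and 64.9% in the slices and 71.5% in Total. Both HuR replicates lay apart from every slice in both shares. With 2 against 3 libraries the exact permutation test cannot go below p = 0.200 (two-sided), and both shares reached that value. The reads carried no molecular identifiers, so all intervals cover counting error only.

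Reads of all genes also lay more often in 3′UTRs in HuR. Over all nuclear protein-coding genes the 3′UTR share was 41.9% and 84.3% in HuR, 23.3% to 33.8% in the slices and 36.7% in Total. Members stood above all genes in HuR replicate 1 and below them in each of the other libraries, and in G35 the interval of the members' share included the value of all genes. Annotated 3′UTRs made up 59.1% of member exon bases and 47.3% of those of all genes. By the label in the deposited tables, made with the authors' own annotation, 40.2% and 46.9% of member exon reads were 3′UTR in HuR, compared to 8.52%, 19.9% and 14.3% in the slices. In HuR replicate 2, 21.9% of the 3′UTR reads counted here carried the label intergenic. Counted gene by gene over genes with at least 20 exon reads, 42 of 70 members (60%) had most of them in the 3′UTR in HuR replicate 2, below the 80.3% of all genes, and 15 of 16 (93.8%) did in HuR replicate 1, where 77.6% of all genes did. In Total it was 25 of 88 members (28.4%, all genes 38.4%) and in G20 7 of 69 (10.1%, all genes 14.8%). G35 and G45 had 1 of 6 and 2 of 5 members, with 41.6% and 42.9% of all genes.

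**Figure D1:**
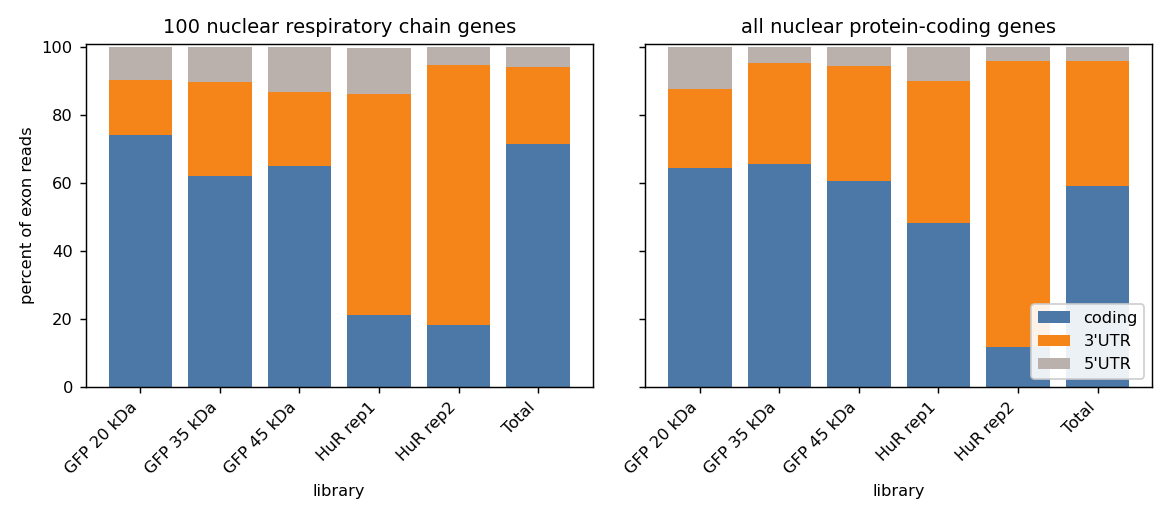
Bars give the percent of exon reads in coding sequence, 3′UTR and 5′UTR by library, for the 100 nuclear respiratory chain genes (left) and all nuclear protein-coding genes (right). In the left panel the 3′UTR part is 65.3% and 76.8% in the HuR libraries and between 16.2% and 27.8% in the others.

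In exon reads per gene, many members stood lower in HuR than in the slices or in Total, but no member passed the test. The fit was edgeR's quasi-likelihood test over all 6 libraries with Benjamini-Hochberg adjustment over 11708 genes, 91 of them members. HuR against GFP called 0 genes higher and 0 lower (0% of genes tested in each direction), so 0 members. At an unadjusted p under 0.05, 4 members were higher and 18 lower, beside 15.9% and 8.88% of all genes. DESeq2 called 0 members higher and 13 lower, where it called 5.31% of all genes higher and 7.0% lower. The median log2 difference of members was -1.02, compared to 0.34 for all genes tested. Both HuR replicates lay below every slice for 28 of 91 members (14.8% of all genes) and above every slice for 19 (30.9%).

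The size of the members' median depended on G20, and its sign on what was counted. Without G20, it was -0.31 and that of all genes 0.30. Counted as sites in place of reads, it was 0.19 over the 45 members tested and 0.03 over all genes. That count had 10 members higher and 7 lower at an edgeR adjusted p under 0.05, beside 20.6% and 21.6% of 8818 genes. The common dispersion of the exon fit on reads was 0.507.

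Against Total, both HuR replicates lay below for 60 of 91 members (38.8% of all genes) and above for 20 (38.0% of all genes). No gene was called by edgeR in either direction (0% of genes). At an unadjusted p under 0.05, 0 members were higher (4.11% of all genes) and 24 lower (5.82%). DESeq2 called 0 members higher (1.9% of all genes) and 8 lower (1.2%). The median log2 difference was -1.24 in members and 0.13 in all genes. It was -0.55 in members without each member's most read site. That site was picked by reads summed over all libraries, and Total held the most member exon reads. The choice thus leaned to peaks of Total, and only members lost a site. Counted as sites over 45 members, the median was 0.45 (-0.03 over all genes). There 4 members were called higher (8.48% of all genes) and 2 lower (12.6%). Total is a single library, so its own spread was taken from the other groups.

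The slices against Total called 0 members in either direction with edgeR (0% of all genes). At an unadjusted p under 0.05, 1 member was higher and 3 lower, beside 2.72% and 3.39% of all genes, and DESeq2 called 0 members in either direction, beside 2.08% of all genes higher and 0.0427% lower. Every slice lay above Total for 9 members (13.1% of all genes) and below it for 43 (34.9%). The median log2 difference was -0.72 in members and -0.26 in all genes. In members it was 0 without each member's most read site, a choice that leaned to peaks of Total.

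**Figure D2:**
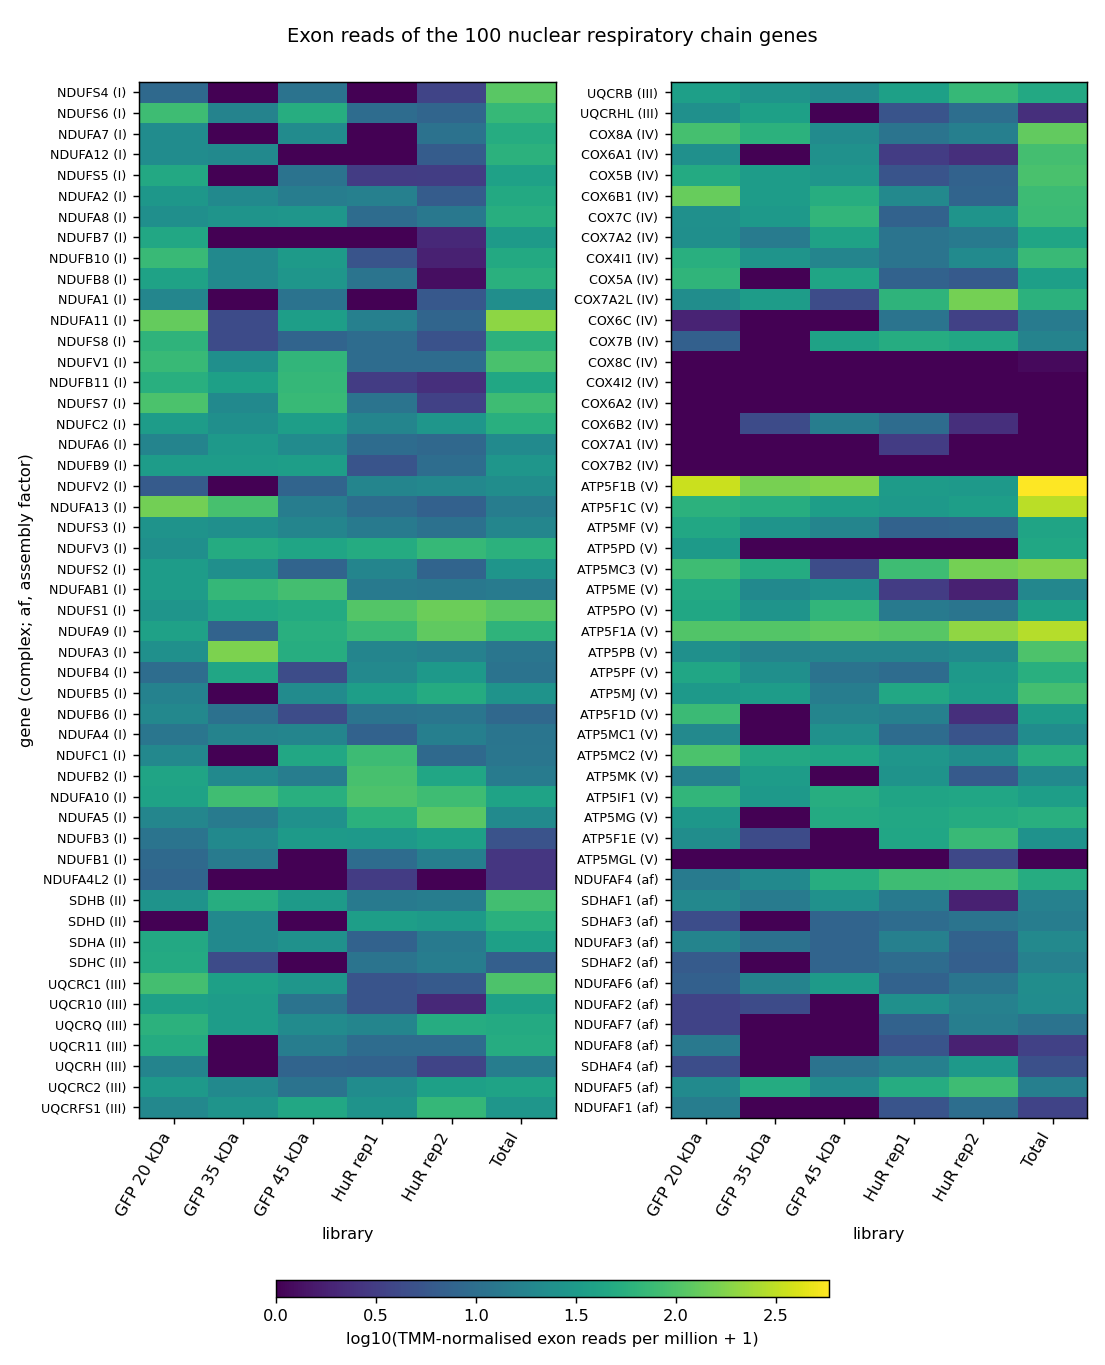
Colour gives TMM-normalised exon CPM, as log10 with 1 added, for each of the 100 members (rows, by complex and by level per length in Total) and each library (columns). The ATP synthase genes ATP5F1B, ATP5F1C and ATP5F1A reach 581, 297 and 287 in Total, and COX4I2, COX6A2 and COX7B2 are at 0 in every library.

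Of the 10 members with the highest level per length in Total, taken as 2 per complex, 6 had both HuR values below every slice. This stands beside 28 of the 91 members tested and 14.8% of all genes, and none of the 10 passed the test. Levels below are TMM-normalised exon CPM, given for G20, G35 and G45, then HuR replicates 1 and 2, then Total. ATP5F1B led complex V and all members in exon reads per kb in Total. Its values were 349, 157 and 175, then 32.0 and 30.2, then 581. The HuR replicates lay close together and below every slice, and the log2 difference to GFP was -2.87 ± 0.79 (SE, edgeR adjusted p = 0.0661) and to Total -4.22 ± 0.93 (adjusted p = 0.224). None of its 15 exon reads in HuR replicate 1 lay in the 3′UTR, which is 148 bp long, and 21 of 113 did in replicate 2. ATP5F1C had 58.4, 52.2 and 34.3 in the slices, 29.8 and 34.3 in HuR, and 297 in Total. HuR replicate 2 was level with G45, and the log2 difference to Total was -3.20 ± 0.83 (SE, edgeR adjusted p = 0.231). The site printed above made up 74.8% of the gene's exon reads in Total.

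In complex I, NDUFS4 and NDUFS6, small subunits that are needed for a stable complex, were highest per length in Total. NDUFS4 had 7.84, 0 and 10.3 in the slices, 0 and 2.68 in HuR, and 114 in Total. In Total 662 of its 669 exon reads lay at one 58 bp coding place, chr5:52899292-52899349, with 0 conversion events per 100 reads. NDUFS6 had 80.2, 16.3 and 51.5, then 8.52 and 6.96, then 69.3, so both HuR values lay below the lowest slice.

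In complex II, SDHB, the iron-sulfur subunit of succinate dehydrogenase, had 25.3, 52.2 and 30.9 in the slices, 12.8 and 13.9 in HuR and 83.0 in Total. SDHD, a membrane anchor of the same enzyme, went the other way. It had 0, 19.6 and 0 in the slices, 34.1 and 31.1 in HuR, and 55.9 in Total, and its log2 difference to GFP was 2.56 ± 1.44 (SE, edgeR adjusted p = 0.286). One 3′UTR place of 48 bp, chr11:111965979-111966026, held 81.2% and 76.7% of the SDHD exon reads in HuR and 73.1% in Total. SDHD has 6 annotated pseudogenes.

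In complex III, UQCRC1, a core protein, had 85.4, 35.9 and 27.5, then 4.26 and 5.09, then 97.9. Its HuR values were below every other library, at a log2 difference to GFP of -3.39 ± 0.95 (SE, edgeR adjusted p = 0.0671). UQCR10, a small subunit, had 36.6, 32.6 and 10.3, then 4.26 and 1.07, then 36.3. In complex IV, COX8A had 88.0, 58.7 and 20.6, then 10.7 and 14.5, then 125, and COX6A1 had 23.5, 0 and 24.0, then 2.13 and 1.34, then 85.4. COX6A1 overlapped between HuR and the slices only through the 0 in G35.

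Members with much of their HuR signal in the 3′UTR differed in how far their gene totals stood from the slices. COX7A2L, NDUFA5 and ATP5MC3 were named for their most read HuR replicate 2 sites, some picked for no slice overlap. That choice favours high HuR values and positive differences to GFP. COX7A2L had 21.8, 32.6 and 3.43 in the slices, 61.8 and 154 in HuR, and 59.5 in Total. Both HuR values were above every slice, at a log2 difference of 2.47 ± 0.83 (SE, edgeR adjusted p = 0.0959), and the Total value lay just below the lower of them. Its 3′UTR held 25 of 29 and 539 of 576 exon reads in HuR and 89 of 348 in Total. NDUFA5 had 17.4, 13.1 and 24.0, then 57.5 and 114, then 19.8, at 2.26 ± 0.79 against GFP (SE, edgeR adjusted p = 0.106). NDUFA5 has 12 annotated pseudogenes, and with unique mapping reads shared with a copy are lost, so its level is uncertain. ATP5MC3 had 79.3, 49.0 and 3.43, then 78.8 and 153, then 176, so HuR replicate 1 overlapped the slices. ATP5F1A, the alpha subunit of the catalytic head, had 103, 104 and 120 in the slices, 111 and 199 in HuR, and 287 in Total, and the gene as a whole overlapped between HuR and the slices even though its 3′UTR held 692 of 742 exon reads in HuR replicate 2 and 134 of 1677 in Total.

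By complex, the exon medians of HuR against GFP ran below that of all genes except for the assembly factors. Complex I had a median log2 difference of -1.28 over 38 members, complex II -1.0 over 4, complex III -1.02 over 9, complex IV -1.64 over 10 and complex V -0.50 over 18. The 12 assembly factors, which help to build complexes I and II and are not part of them, had a median of 0.95. Against Total the medians were -1.24, -1.33, -0.46, -2.42 and -1.53 for complexes I to V and -0.19 for the assembly factors.

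Members with short 3′UTRs had the lower values. Members were split at the median annotated 3′UTR length of those tested, 657 bp. Below it, 41 of 45 members had a negative log2 difference of HuR to GFP, with a median of -1.93. At or above it, 19 of 46 did, with a median of 0.55. Against Total the medians were -2.62 and -0.07. All genes showed the same order, with -1.28 below 657 bp and 0.69 at or above it against GFP. Across the 91 members, Spearman's rho between length and the difference to GFP was 0.62 (Pearson's r with log2 length 0.62), and across all 11708 genes it was 0.46 (0.43). Against Total the members' rho was 0.55. Genes are not independent replicates, all points share the same 6 libraries, and the lengths join all protein-coding transcripts of a gene. The median 3′UTR was 608 bp in members and 1260 bp in all genes. Whether the length accounts for the lower values of members was not tested.

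**Figure D3:**
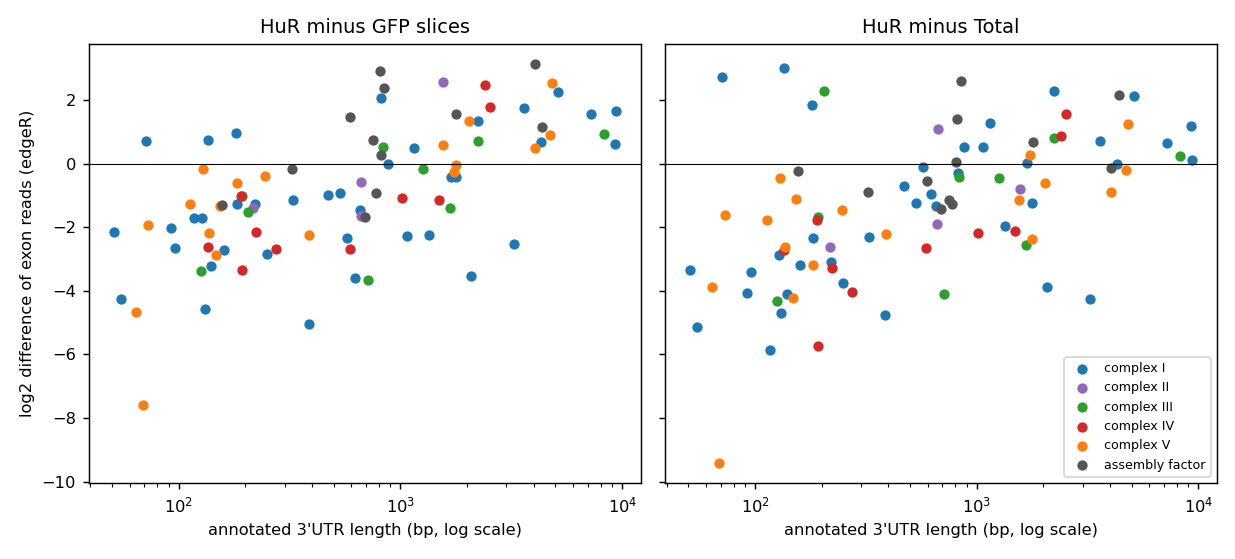
Each point is a tested member, placed by its annotated 3′UTR length in bp (log axis) and its log2 difference of exon reads, HuR minus the GFP slices (left) and HuR minus Total (right), with colours for the complexes. Points of short 3′UTRs lie mostly below 0, and the lowest point, ATP5PD, had no exon read in either HuR library, so its fitted value depends on the prior count.

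Other gene lists gave values on either side of 0. Over all genes, 8.88% were lower and 15.9% higher in HuR than GFP at an unadjusted p under 0.05 (edgeR). Cytosolic ribosomal protein genes, which also have short mRNAs, had a median log2 difference to GFP of -1.52 over 77 tested. At that threshold 29 were lower and 3 higher. Mitochondrial ribosomal protein genes had a median of 0.17 over 76, with 8 lower and 8 higher. Against Total they had -1.45 and -0.92. The list of other respiratory chain genes holds, among others, cytochrome c, the complex III subunit CYC1 and transcription regulators of mitochondrial genes. It also holds assembly factors of complex I and of complexes III to V. Of its 47 genes 43 were tested, and edgeR called 0 in either direction. Against GFP, 7 were higher and 3 lower at an unadjusted p under 0.05, beside 15.9% and 8.88% of all genes. The median was 0.46 against GFP and -0.05 against Total.

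Among the slices, member exon reads were concentrated in G20 when measured against the exon reads of the library. Of 79 members with at least 20 exon reads over the 3 slices, 41 had a G20 value at least 2 times that of both other slices (51.9%, beside 40% of 9009 genes), and 0 had at most 1 in 2 (4.84% of genes). The 5 with the highest G20 values were ATP5F1B, NDUFA13, COX6B1, NDUFA11 and ATP5MC2. ATP5F1B had 512, 128 and 147 RPM (reads scaled to 1000000 exon reads) in G20, G35 and G45. NDUFA13 had 219, 74.6 and 11.5, and COX6B1, a complex IV subunit on the side of the intermembrane space, had 190, 26.6 and 43.2. NDUFA11 had 189, 2.66 and 28.8, and ATP5MC2 had 139, 37.3 and 34.6. By complex, 14 of 35 in complex I, 2 of 3 in complex II, 7 of 9 in complex III, 5 of 9 in complex IV and 12 of 18 in complex V were called. Cytosolic ribosomal protein genes were called in 49 of 66 cases. Scaled by all reads of the library in place of exon reads, 9 of the 79 members were higher and 9 lower in G20. Only 16 members could be counted by sites, with 1 higher and 1 lower. The members' calls thus changed with the scale. The share of all genes is not given for these settings, so their counts have no reference. Each slice is 1 library, and this comparison has no test.

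In introns, 2 members passed the test of HuR against GFP, both lower, and both rested on a single place. The fit covered 13253 genes, 84 of them members, and called 0.453% of genes higher and 3.16% lower. No member was higher. DESeq2 called 7 members lower and 0 higher, beside 9.89% and 4.09% of all genes. Counted as sites, 2 members were higher and 6 lower, beside 9.47% and 11.9% of all genes. The median log2 difference on reads was 0.37 in members and 0 in all genes. Without TMM scaling the all-gene median was 2.21 and the members' was 2.70, and no member was called.

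COX7B2, a testis-type isoform of a small complex IV subunit, had 170, 369 and 592 intron reads in G20, G35 and G45, 95 and 602 in HuR, and 93 in Total. As TMM-normalised intron CPM these were 94.4, 232 and 328, then 12.8 and 15.0, then 7.91. Every slice was above both HuR replicates, at a log2 difference of -3.97 ± 0.73 (SE, edgeR adjusted p = 0.012). One place of 23 bp, chr4:46867690-46867712 on the minus strand, held 91.8%, 98.1% and 94.1% of the intron reads in the slices and 58.9% and 73.6% in HuR. UQCR11, a small complex III subunit, had 83.8, 125 and 309 in the slices, 17.3 and 9.58 in HuR, and 3.32 in Total, at -3.69 ± 0.75 (SE, edgeR adjusted p = 0.0148). Its place at chr19:1603760-1603785 on the minus strand held 92.7% to 100% of intron reads in the slices and 93.8% and 83.9% in HuR. Without each member's most read site, neither gene passed, at -1.20 for COX7B2 (adjusted p = 0.415) and -1.25 for UQCR11 (adjusted p = 0.574), over alternatives that ran from an adjusted p of 1.34e-07 to 0.415 for COX7B2 and from 1.49e-05 to 0.574 for UQCR11. Neither passed without G35, without G45 or without HuR replicate 2, where fewer libraries entered the fit, while the log2 differences stayed at -4.14, -3.69 and -4.13 for COX7B2 and -4.03, -3.03 and -3.37 for UQCR11.

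These places were almost free of conversions, and whether their reads come from the transcripts of these genes was not tested. The COX7B2 place had 3.85, 2.21 and 3.23 events per 100 reads in the slices and 0 and 7.90 in HuR, and the UQCR11 place had 0.714, 1.51 and 0.181 in the slices and 0 and 2.17 in HuR. Other places among the most read were alike in length and conversions. The NDUFA12 intron place chr12:95386178-95386201, which the deposited tables label as a repeat, held 114, 237 and 309 reads in the slices, 147 and 345 in HuR and 1 in Total, with at most 6.80 events per 100 reads. The NDUFA9 intron place chr12:4795389-4795419 held 103, 279 and 263 reads in the slices, 44 and 159 in HuR and 0 in Total, with at most 2.52 events per 100 reads. A second NDUFA9 place, chr12:4772621-4772637, is also labelled as a repeat. It had 34, 84 and 97 reads in the slices and 173 and 27 in HuR, with 0 events in all 5 libraries. All 5 places are 31 bp or shorter. At the HuR intron sites printed above, events per 100 reads were 111 to 130 in HuR replicate 2.

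HuR against Total in introns called 0 members in either direction with edgeR, where 0% of all genes were called higher and 0.0302% lower. At an unadjusted p under 0.05, 0 members were higher (5.27% of all genes) and 1 lower (0.845%). DESeq2 called 0 members lower and 0 higher, beside 0.181% and 1.64% of all genes. The members' median was -0.21 and that of all genes 0.22. The most read intron site of members in Total was in ATP5F1B at chr12:57037465-57037543, with 225 reads in Total, 84 in G20, 6 in each other slice and none in HuR. The next were UQCRC2 at chr16:21987989-21988019 with 71 reads and COX7A2 at chr6:75953154-75953172 with 58, and neither held a read in a slice.

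The slices against Total, a contrast of the same fit that was added after seeing the data, called 3 members higher in introns (3.76% of all genes) and 0 lower (0.106%). They were COX7B2, UQCR11 and NDUFA12, the genes of 3 of the places above. Their log2 differences were 4.78 ± 1.05 (SE, edgeR adjusted p = 0.0214), 5.70 ± 1.15 (adjusted p = 0.0158) and 3.52 ± 0.92 (adjusted p = 0.0426). At an unadjusted p under 0.05, 5 members were higher (13.1% of all genes) and 5 lower (3.03%), and DESeq2 called 5 higher (11.3%) and 0 lower (0.294%). Every slice lay above Total for 11 members (28.0% of all genes) and below it for 36 (33.1%).

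Exons made up a small part of member reads in HuR and most of them in Total. The exon share was 13.2% and 14.3% in HuR replicates 1 and 2, 63.0%, 23.6% and 18.4% in G20, G35 and G45, and 69.1% in Total. Both HuR values lay below every slice (exact permutation p = 0.200, two-sided, the smallest 2 against 3 libraries allow), and G20 stood apart from the other slices. Over all genes the share was 17.9% and 15.9% in HuR, 3.98%, 17.1% and 13.2% in the slices and 52.2% in Total. By reads, G20 thus had the lowest exon share of all libraries over all genes and the second highest over members. Counted as sites over all genes, G20 held 188093 in exons and 253658 in introns, and Total 452889 and 1537004. The low all-gene share of G20 therefore holds for reads only.

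Conversions were frequent at member sites in HuR and rare in Total. Exon sites had 82.4 and 98.1 events per 100 reads in HuR, 16.6, 86.0 and 61.6 in the slices and 11.4 in Total. G35 lay between the HuR replicates, so the groups overlapped in exons (exact permutation p = 0.400, two-sided). Intron sites had 83.0 and 102 in HuR, 24.3, 36.9 and 27.7 in the slices and 23.0 in Total, and here both HuR replicates were above every slice (exact permutation p = 0.200, two-sided). Without the 10 most read member sites of each library the slices' intron mean went from 29.6 to 57.6. Over all genes, exon sites had 45.8 and 98.3 in HuR, 21.3, 45.4 and 44.7 in the slices and 15.1 in Total. Intron sites of all genes had 65.7 and 97.4 in HuR, 8.88, 55.0 and 46.9 in the slices and 27.1 in Total. In HuR replicate 1 members were thus above all genes in exons and introns. In G35 the member exon value, 86.0, was above the 45.4 of all genes, and the member intron value, 36.9, was below the 55.0 of all genes.

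**Figure D4:**
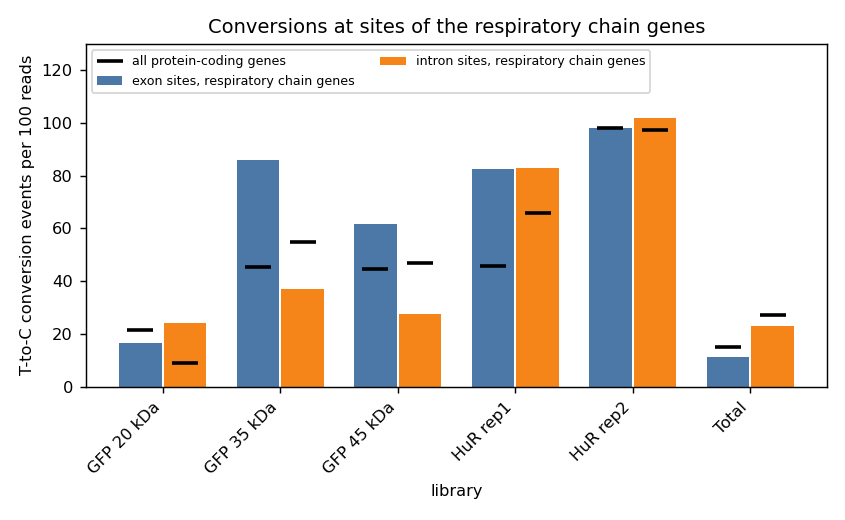
Bars give T-to-C conversion events per 100 reads at exon and intron sites of the respiratory chain genes by library, and black lines give the same over all nuclear protein-coding genes. Both HuR libraries are above 82 in exons and introns, and Total and G20 are the lowest in both.

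About 1 in 3 HuR exon sites of members lay on a site that a slice also had, and far fewer intron sites did. In exons, 202 of 609 sites of HuR replicate 1 (33.2%, Wilson 95% interval 29.5 to 37) and 342 of 1052 of replicate 2 (32.5%, 29.7 to 35.4) shared at least 1 bp on the same strand with a site of any slice. Over all genes the shares were 25.5% and 26.0%, below both intervals. In introns the members' shares were 7.85% and 7.56%, and those of all genes 7.09% and 6.54%. By reads, 35.4% and 40.3% of member exon reads in HuR lay on such sites, compared to 69.6% and 50.9% over all genes. In HuR replicate 2, exon sites with an overlap held a run of 5 T in 8.19% of cases, and sites without one in 17.2%. In HuR replicate 1 these were 7.92% and 9.58%. In introns the order was the other way, with 19.5% and 13.5% in replicate 1 and 24.9% and 22.3% in replicate 2. Of the member sites of HuR replicate 1, 309 of 609 in exons and 1810 of 3798 in introns shared a base with a site of replicate 2, or 50.7% and 47.7%, beside 50% and 40.7% over all genes.

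T runs were most frequent at HuR replicate 2 sites and G runs in G20. A run of 5 T (TTTTT) was held by 9.03% and 14.3% of member exon sites in HuR, 2.41%, 7.38% and 5.21% in the slices and 3.81% in Total. In introns the shares were 14% and 22.5% in HuR, 6.44%, 10.7% and 19.5% in the slices and 8.07% in Total, so G45 lay between the HuR replicates. ATTTA was held by 6.08% and 7.22% of member exon sites in HuR and by 1.32%, 5.37% and 3.32% in the slices. A site can hold more than one of these. A run of 4 G (GGGG) was held by 20.5%, 12.8% and 15.2% of exon sites in the slices, 8.21% and 9.32% in HuR and 9.66% in Total. In exons the HuR shares of T runs were all above those of the slices and the shares of G runs all below (exact permutation p = 0.200, two-sided, for each). RNase T1 cuts after G, so site ends are not independent of base composition. Over all genes the T run was more frequent in exon sites of every library than in members, at 12.1% and 17.4% in HuR, 2.86%, 9.18% and 10.6% in the slices and 5.25% in Total. The member interval included the all-gene value in G20 and G35 and lay below it in G45, both HuR libraries and Total.

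**Figure D5:**
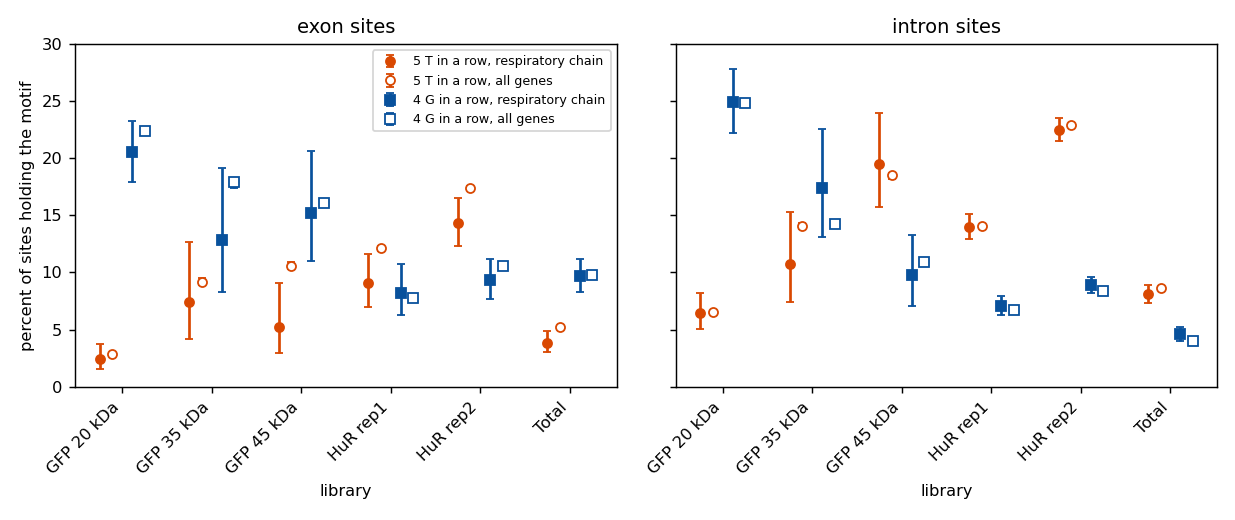
Points give the percent of exon sites (left) and intron sites (right) that hold 5 T in a row (circles) or 4 G in a row (squares), for respiratory chain genes (filled) and all nuclear protein-coding genes (open), with 95% Wilson intervals. T runs reach 22.5% of member intron sites in HuR replicate 2, and G runs reach 24.9% in G20.

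Apart from the copy UQCRHL, isoforms restricted to certain tissues were at or near 0 in exons. Each common partner had exon reads in both HuR replicates and Total. COX4I2, COX6A2 and COX7B2 had no exon read in any library, which allows up to 0.714 exon RPM in Total and up to 8.64 in G45. COX7A1 had 1 exon read and COX8C had 1 over all 6 libraries, and COX6B2 had 0, 1 and 4 in the slices, 4 and 5 in HuR and 0 in Total. Their partners COX6A1, COX6B1 and COX8A are given above. COX4I1 had 54.9, 26.1 and 17.2 exon CPM in the slices, 10.7 and 20.3 in HuR, and 73.2 in Total. COX7A2 had 22.7, 13.1 and 37.8, then 10.7 and 12.8, then 41.1, and COX7B had 6.10, 0 and 37.8, then 51.1 and 44.7, then 16.3. NDUFA4L2, a paralog of NDUFA4 that hypoxia induces in many cells, had 8 exon reads in G20, 1 in HuR replicate 1, 10 in Total and none elsewhere. NDUFA4 had 13, 5 and 5 reads in the slices, 3 and 55 in HuR and 63 in Total. UQCRHL, an intronless copy of UQCRH, had 27, 11 and 0 exon reads in the slices, 2 and 34 in HuR and 8 in Total. UQCRH had 19, 0 and 2, then 3 and 10, then 80, so UQCRHL was above it in G20, G35 and HuR replicate 2. The copies are nearly identical, so reads they share are lost under unique mapping and a mismatch can place a read on the wrong copy. Both levels are uncertain, and 52 of the 100 members have at least 1 annotated pseudogene.

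In all, 60 members had an exon read in every library and 9 did not pass the count filter in exons, namely NDUFA4L2, COX6C, COX8C, COX4I2, COX6A2, COX6B2, COX7A1, COX7B2 and ATP5MGL. COX6C and ATP5MGL were outside the rule for named genes and are given here to account for all members. COX6C, a complex IV subunit with 17 annotated pseudogenes, had 78 exon reads in Total, 5 and 9 in HuR, and 1 over the slices.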

How the data were processed

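The deposited counts are whole numbers of reads and of T-to-C events per site, which the authors did not normalize. Per the methods, single reads of 50 bp were mapped to hg19 with Bowtie (version not given in the sources used here), and PARalyzer built groups and clusters from uniquely mapping reads whose only mismatches were at most 2 T-to-C changes, which lowers the counts of genes with near-identical copies. Removal of PCR duplicates is not stated.

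Site positions were 1-based, and all member site sequences matched GRCh37. Genes came from GENCODE release 44 mapped to hg19. Sites whose midpoint lay in small RNA genes were left out, readthrough and mitochondrial genes were not counted, and introns exclude exons of other genes. Library totals were 6187300 to 38644636 reads.

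Reads per gene were tested with edgeR 4.0.16 in R 4.3.3 (TMM, quasi-likelihood, Benjamini-Hochberg over all genes, threshold 0.05) in a single fit of the GFP, HuR and Total groups, for genes with at least 10 reads in at least 2 libraries. DESeq2 1.42.0 was an alternative. The fit was tested on simulated data. At the fitted dispersion it missed most genes that had been changed 4-fold or 8-fold in HuR. A lack of calls therefore does not show a lack of difference. Shares carry Wilson intervals (statsmodels 0.14.6). Permutation tests used scipy 1.17.1, with Python 3.11.15 and pandas 2.3.3.

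Members and lists were chosen with earlier results of these data known. Named genes were the 2 members per complex with the most exon reads per kb in Total, members past the thresholds, the 5 members called in G20 with the highest values, tissue-restricted isoforms with partners, and the genes of each library's 3 most read sites and of the 3 most read HuR replicate 2 sites with no slice overlap. The length split, the gene-by-gene 3′UTR majority and the alternative without each member's most read site were added after seeing the data. The other alternatives changed scaling, tool, filter, sites for reads, exon rule, small RNA sites, overlap rule and replicates. Clusters were used in 1 alternative only. One of the most read HuR replicate 2 exon sites is not reported here.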

Additional observations from a re-analysis of the deposited data

Results flagged for a closer look

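Reads on the strand opposite to member exons, outside any gene on their own strand, entered no comparison and stood out in HuR replicate 1. There they came to 169 per 100 sense exon reads of members (1620 reads), compared to 1.79, 9.5 and 4.77 in G20, G35 and G45, the level in the control libraries, and to 5.56 in HuR replicate 2 and 0.982 in Total. One place opposite the ATP synthase gene ATP5MG, chr11:118272254-118272270, held 1099 of these reads with 1 conversion event over 17 bp. ATP5MG is named because of this value. Without that place the figure was 54.2 per 100, still above each slice, and over all genes the same library had 39.0 per 100, against 10.3 to 38.9 in the slices.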

How the results depend on the processing

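No paired analysis was possible because the slices are different gel regions, the replicate numbers of GFP and HuR mark no shared culture, and Total has 1 library. In exons, HuR against GFP called 0 members higher and 0 lower. It gave 10 higher and 7 lower when sites were counted (20.6% and 21.6% of all genes). DESeq2 gave 0 higher and 13 lower (5.31% and 7.0% of all genes). Without a filter, 1 was higher and 6 lower. HuR against Total (0 and 0) gave 4 higher and 2 lower with sites (8.48% and 12.6% of all genes). DESeq2 gave 8 lower (1.2% of all genes). The count was 8 lower without a filter and 1 lower without TMM. In introns, the 2 members lower in HuR than GFP (3.16% of all genes) became 0 without TMM or without each member's most read site. The latter setting was chosen after seeing the data. DESeq2 gave 7 lower (9.89% of all genes), and sites gave 6 lower and 2 higher (11.9% and 9.47%). Without a filter, 4 were lower. Leaving out 1 library gave 0 to 2. HuR against Total in introns gave 1 lower without a filter. The cause of these shifts was not tested. For settings shown without a share, that of all genes is not given, so those member counts have no reference. The G20 calls (41 higher, 0 lower) became 9 and 9 when scaled by all library reads. By sites they were 1 and 1, over only 16 members. The exon share in Total, 69.1%, was 24.7% by sites and 62.7% without the 10 most read sites. The 3′UTR share went from 22.8% to 45.7% by sites in Total and from 21.9% to 28.4% in the slices. Events per 100 reads in Total were 11.4 in exons, and 12.3 without the 10 most read sites and 12.8 in clusters, and they went from 23.0 to 28.8 in introns with clusters and from 29.6 to 57.6 in the slices without those sites. The overlap of HuR sites with slices went from 32.8% to 29.5% with 10 bp, 33.3% with strand ignored and 40.3% for sites with at least 5 reads in exons, and from 7.70% to 7.13%, 8.08% and 20.8% in introns. Weighted by reads, the T run share went from 11.6% to 21.1% in HuR exons, 3.81% to 1.18% in Total exons, 12.2% to 5.19% in slice introns and 8.07% to 6.67% in Total introns, where sites with at least 5 reads gave 5.05%. The common dispersion of the fits on reads was 0.507 in exons and 0.362 in introns.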
